A study of Vitis vinifera and Vitis riparia and Vitis amurensis with 189 samples.

Results

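Dormant buds of 2 wild grapevines, Vitis amurensis and Vitis riparia, were compared as they came from the vineyard, before any time in warmth. The comparison holds every day 0 library of the species, 5 of V. amurensis and 6 of V. riparia, out of 189 RNA-seq libraries in all. V. amurensis was genotype PI588635 and V. riparia was genotype PI588275, each kept as clonal vines in a germplasm repository of cold-hardy grapevines. Neither group had been treated, and the labels name no altered allele in either. Buds were taken from pruned dormant canes and frozen at once in liquid nitrogen. The remaining canes were cut to pieces with 1 node and stood in water at room temperature, and buds were frozen each day until they began to open. Later days of the same genotypes, and buds of the Vitis vinifera cultivars Cabernet Sauvignon and Riesling from a commercial vineyard, served as outside measurements. Cultivar buds of day 0 were set beside those of the wild species. Together with warmed cultivar buds of later days, they also gave the lists of genes that respond to warmth. The age of the vines is not given in the sources used here. With 1 genotype for each species, a difference between species cannot be told apart from a difference between these clones. The labels do not say that replicates came from separate vines, so p-values measure the spread between these bud samples, part of which may be technical.

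A grapevine bud forms in summer and holds leaf and flower primordia under scales through the winter. In dormancy its growth is arrested, and its cells build up protection against freezing in autumn and lose it again in spring. Once chilling has been met, warmth alone brings on loss of cold hardiness, renewed metabolism and growth, and finally budburst. V. amurensis comes from East Asia and V. riparia from North America, both are known for very hardy winter buds, and both are used by breeders as sources of cold hardiness.

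Library totals ranged from 723019 to 14050861 gene counts in V. amurensis and from 1257186 to 16229199 in V. riparia. In 3 cases libraries of 1 group were close to copies of each other. Replicates 1 and 4 of V. amurensis, replicates 1 and 4 of V. riparia, and replicates 3 and 6 of V. riparia differed by a biological coefficient of variation of 0.0740, 0.0775 and 0.0764, against 0.1363 to 0.3994 in every other pair within a species. They still differed by more than the counting of reads alone would give, with a chi-square of 2.25 to 3.35 per gene, but each pair was summed and counted as 1 sample, which left 4 samples of each species. After this, replicate 3 stood apart in V. amurensis, where its correlation with the other samples was 0.868 to 0.898, against 0.959 to 0.980 among those others. In V. riparia the sample of replicates 1 and 4 stood farthest from the rest, at 0.907 to 0.937. Between the species all 16 correlations were lower than any within a species, from 0.706 to 0.849. Species labels were checked with genes that separated the species on days 1 to 10. Such genes of the sample's own species took 98.7% to 99.3% of the marker counts in V. amurensis and 97.7% to 99.7% in V. riparia. The gene identifiers matched none of the available names, so the labelled tissue could not be checked against known bud genes and only 4 genes are described singly.

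About 3 in 10 genes differed between the species in dormancy. Of 15768 genes tested with edgeR's quasi-likelihood test, 4708 were called at a Benjamini-Hochberg adjusted p under 0.05, which is 29.9% of those tested. V. amurensis was higher at 2312 genes (14.7%) and lower at 2396 (15.2%). The median log2 fold change of V. amurensis over V. riparia was 0.00159 over all tested genes, and its median absolute size among called genes was 1.33. A difference of at least 2-fold was seen at 1645 higher and 1721 lower genes, and one of at least 16-fold at 130 higher and 152 lower genes. At 4103 of the 4708 called genes, or 87.2%, every V. amurensis sample lay on the same side of every V. riparia sample, as was so at 4959 of all 15768 tested genes. This count follows closely from the calls and adds no separate evidence. With replicates 1 to 3 only, 2521 genes were called, 1176 higher and 1345 lower. Without both samples that stood apart, an analysis added after the data had been seen, 6415 were called, 3220 higher and 3195 lower. In bulk buds, fewer cells of a type and less RNA per cell cannot be told apart, and neither can a lower level and a poorer match of a species' reads to the reference.

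**Figure D1:**
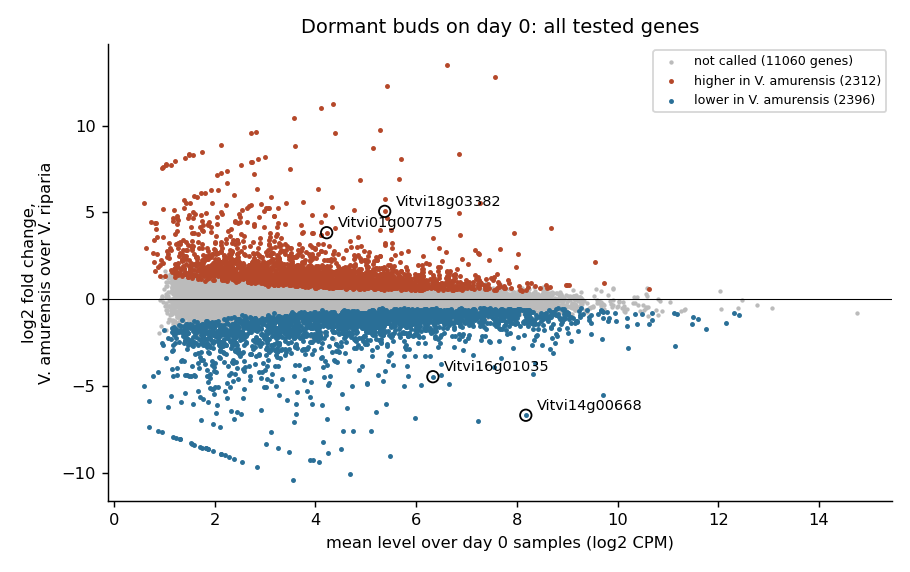
Log2 fold change of V. amurensis over V. riparia (vertical axis) against mean level in log2 CPM (counts scaled to a common library size, horizontal axis) for the 15768 genes tested on day 0. Each point is a gene, coloured where called at an adjusted p under 0.05 (2312 higher, 2396 lower), and the 4 genes described singly are ringed; slanting rows of points at the edges are genes with few or no counts in 1 species.

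The direction of the difference varied with the level of the gene. When the tested genes were divided by mean level into 3 sets of 5256 genes, the lowest set (median 6.01 CPM, counts scaled to a common library size) held 894 genes higher and 723 lower in V. amurensis. The middle set (median 24.9 CPM) held 958 higher and 687 lower genes. In the highest set (median 103 CPM) the balance was the other way, with 460 higher and 986 lower. The share called was similar throughout, at 30.8%, 31.3% and 27.5%. A related measure is the share of all gene counts taken by the 100 most abundant genes of a sample. It was 17.8%, 17.7%, 17.8% and 16.5% in V. amurensis, against 23.6%, 19.9%, 23.4% and 20.8% in V. riparia. All 4 V. amurensis samples were below all 4 V. riparia samples, so the counts of V. riparia buds were more concentrated in few genes. The means were 17.5% ± 0.624 in V. amurensis and 21.9% ± 1.82 in V. riparia (SD, n = 4 each), with an exact two-sided permutation p of 0.0286, the smallest that 4 samples against 4 allow, and 0.143 after adjustment over 5 library measures. This difference missed the threshold after adjustment, and its part in the balance of calls was not tested.

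The other library measures give the technical background of these calls. The share of records that fell outside annotated genes was 16.7% ± 2.61 in V. amurensis and 15.7% ± 3.87 in V. riparia (SD, n = 4 each), a difference of 1.09 percentage points with an exact two-sided permutation p of 0.714 (adjusted 0.943). Records that aligned to more than 1 place made up 13.5% ± 3.57 in V. amurensis and 13.2% ± 4.86 in V. riparia (exact p 0.857, adjusted 0.943). After each sample was thinned to 1609411 counts, 18825 ± 1373 genes were detected in V. amurensis and 19154 ± 358 in V. riparia (exact p 0.943, adjusted 0.943). Records that fell on more than 1 gene made up 0.179% ± 0.0234 in V. amurensis and 0.229% ± 0.0292 in V. riparia (exact p 0.0857, adjusted 0.214). In each of these 4 measures the groups overlapped.

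The cultivars gave a rough scale for the size of the species difference. The wild genotypes came from a germplasm repository and the cultivars from a commercial vineyard. A difference between wild species and cultivars thus cannot be told apart from a difference of site. In a fit of day 0 buds of all 4 genotypes, 17357 genes were tested. V. amurensis differed from the mean of the cultivars at 6694 genes (38.6%), and V. riparia differed from it at 6840 genes (39.4%). V. amurensis differed from V. riparia at 6343 genes (36.5%) in the same fit, with 3092 higher and 3251 lower. Cabernet Sauvignon differed from Riesling at 835 genes (4.81%). These comparisons share samples, so their counts stand side by side and are no test of each other. The wild species had 4 samples each here and the cultivars 3 each. With a limit of at least 2-fold the counts were 4209 and 4161 against the cultivars, 4193 between the wild species and 763 between the cultivars.

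The cultivars lay no closer to one wild species than to the other across the called genes. Among the 2312 genes higher in V. amurensis, the cultivar mean was nearer to V. amurensis at 48.5% and nearer to V. riparia at 51.5%. Among the 2396 lower genes it was nearer to V. amurensis at 51.5% and nearer to V. riparia at 48.5%. The cultivars lay between the wild species at 59.2% of higher and 59.3% of lower genes, against 36.5% of all tested genes. Called genes were picked for a gap between the wild species, which leaves more room between them. The larger share among called genes is thus no separate result. They lay below both wild species at 23.4% of the higher genes and above both at 17.4%, and below both at 20.4% and above both at 20.3% of the lower genes.

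A small number of genes were read in 1 species and almost not at all in the other. In V. amurensis 12 genes reached at least 10 CPM in every sample while all V. riparia samples together held at most 3 counts, and 6 of them had no count in V. riparia. Their median level in V. amurensis was 42.9 CPM and the highest reached 426 CPM. Set against the level that 3 counts over the V. riparia group would give, 0.099 CPM, the least different of them was at least 7.19 higher on the log2 scale. Few of these genes were seen elsewhere: 11 of the 12 were below 1 CPM in the cultivars, and on later days 5 reached a mean of 1 CPM in V. riparia and 0 reached 10 CPM. The reverse set held 8 genes, of which 1 had no count in V. amurensis, with a median of 39.8 CPM and a highest level of 60.5 CPM in V. riparia. Against a V. amurensis level of 0.104 CPM for 3 counts over the group, the bound was at least 8.04 on the log2 scale. The rule that chose these genes sets a large part of both bounds, so their size is a description only. Of these 8 genes, 4 were at 10 CPM or more in the cultivars and 2 were below 1 CPM. On later days 4 of the 8 reached a mean of 1 CPM in V. amurensis and 1 reached 10 CPM. The absence of counts can come from a gene that is missing, silent or too different in sequence to be aligned, and these cannot be told apart in count tables.

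The 4 genes described singly show the forms that the day 0 difference took. They were chosen as those with the widest gap between the groups. In each direction 1 came from genes that differed on all 10 shared days. Another 1 in each direction came from genes whose day 0 difference was larger than a mean later difference near 0, called here the day 0 kind. The day 0 differences of the 4 genes, and for the day 0 kind also the later mean near 0, therefore describe how they were picked. The p-values given with them are no separate evidence. Vitvi18g03382, the higher gene of the lasting kind, was at 88.2, 78.4, 94.9 and 106 CPM in V. amurensis, against 1.34, 1.27, 4.64 and 3.79 CPM in V. riparia. The groups were far apart, and the V. riparia levels rested on 5, 5, 15 and 46 reads. The log2 fold change was 5.07 ± 0.361 (SE, edgeR adjusted p 2.38e-06). The difference was largest on day 2, at 5.99 ± 0.476, and on day 10 it was 1.56 ± 0.376 (edgeR adjusted p 0.00135). By day 10 the gene was at 36.6 ± 14 CPM in V. amurensis and 12.6 ± 5.43 CPM in V. riparia (SD, n = 3 each), so its levels were lower than on day 0 in V. amurensis and higher than on day 0 in V. riparia. The cultivars had 0.825 ± 0.326 CPM in Cabernet Sauvignon and 0.0581 ± 0.101 CPM in Riesling on day 0 (SD, n = 3 each), below both wild species.

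Vitvi14g00668 was the lower gene of the lasting kind. It had 5.02, 4.15, 7.81 and 8.93 CPM in V. amurensis, against 279, 806, 615 and 1031 CPM in V. riparia. The lowest V. riparia sample, that of replicates 1 and 4, still lay far above all V. amurensis samples. The log2 fold change was -6.68 ± 0.449 (SE, edgeR adjusted p 1.95e-06). On later days it stayed between -4.91 and -5.93, while the level on day 10 was below that of day 0 in both species, at 1.99 ± 1.19 CPM in V. amurensis and 107 ± 43.4 CPM in V. riparia (SD, n = 3 each). The difference on day 0 did not pass the threshold against the mean of the later days (interaction -1.12 ± 0.429, edgeR adjusted p 0.0617). In the cultivars the gene was at 0.946 ± 0.635 CPM in Cabernet Sauvignon and 1.17 ± 0.279 CPM in Riesling, so V. riparia was the only one of the 4 genotypes above 10 CPM on day 0.

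Vitvi01g00775 was already high in dormant V. amurensis buds. Its levels on day 0 were 34.2, 32.9, 38.4 and 53.2 CPM in V. amurensis, against 2.95, 1.77, 2.17 and 4.03 CPM in V. riparia. The groups did not overlap, and the log2 fold change was 3.84 ± 0.313 (SE, edgeR adjusted p 6.87e-06). In warmth the mean of V. amurensis was highest on day 1, at 60.7 ± 6.55 CPM (SD, n = 3), while that of V. riparia was 19.0 ± 2.02 CPM on day 3 and 21.4 ± 7.80 CPM on day 5 (SD, n = 3 each). On day 4 the V. riparia samples had 47.2, 21.6, 25.4, 71.4 and 12.7 CPM, of which replicates 1, 2 and 4 were shallow and held 12, 4 and 36 reads of the gene. The difference was still called on day 1, at 2.95 ± 0.442 (edgeR adjusted p 1.36e-06), and on day 2, at 1.85 ± 0.423 (edgeR adjusted p 0.000752). From day 3 on it was no longer called (log2 fold change on day 3 0.564 ± 0.413, edgeR adjusted p 0.378). It was negative from day 4 through day 9, so the mean of the later days takes in differences of both signs. The difference on day 0 exceeded the mean of the later days by 3.38 ± 0.433 on the log2 scale (SE), which is part of how the gene was chosen. The cultivars were low on day 0, at 3.27 ± 2.25 CPM in Cabernet Sauvignon and 5.32 ± 3.42 CPM in Riesling (SD, n = 3 each).

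Vitvi16g01035 had the opposite form, a low level in dormant V. amurensis buds and no called difference from day 2 on. It had 8.13, 12.7, 3.60 and 6.06 CPM in V. amurensis, against 172, 181, 213 and 163 CPM in V. riparia. All V. riparia samples lay close together, more than an order of magnitude above every V. amurensis sample. The log2 fold change was -4.46 ± 0.310 (SE, edgeR adjusted p 2.22e-06). On day 1 it had 24.0 ± 4.20 CPM in V. amurensis and 137 ± 19.4 CPM in V. riparia (SD, n = 3 each), with a log2 fold change of -2.47 ± 0.306 (edgeR adjusted p 2.18e-08). On day 2 the difference was -0.167 ± 0.289 (edgeR adjusted p 0.727). By day 10 the gene had reached 270 ± 68.6 CPM in V. amurensis and 433 ± 116 CPM in V. riparia. The cultivars, at 16.5 ± 5.52 CPM in Cabernet Sauvignon and 27.8 ± 4.13 CPM in Riesling on day 0 (SD, n = 3 each), lay between the wild species.

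**Figure D2:**
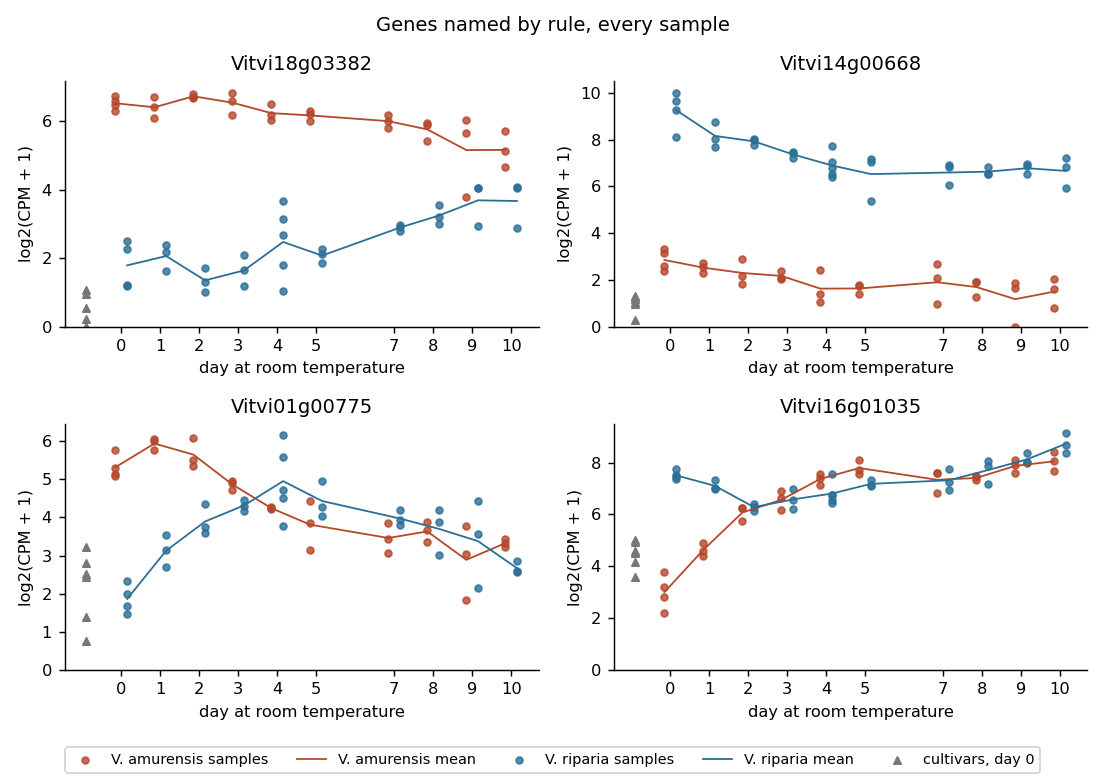
Level of each of the 4 genes, as log2 of CPM plus 1, in every sample against day at room temperature, V. amurensis in red and V. riparia in blue with lines through the means; grey triangles left of day 0 are day 0 samples of the cultivars, drawn there only to keep them apart. The upper genes were called on every day, although the difference of Vitvi18g03382 was smaller on day 10 (1.56) than on day 2 (5.99), and the lower genes were no longer called from day 3 (Vitvi01g00775) or day 2 (Vitvi16g01035) on.

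The day 0 differences were smaller, in their median, once the buds were in warmth. To follow them, 64 samples of both species on the 10 days they share were fitted together over 21733 genes, of which 27.6% were called on day 0. Of the 4708 genes called in the day 0 samples alone, 4052 (86.1%) were called in the same direction on day 0 of this fit, which shares those samples. On day 1, in other libraries, 2237 (47.5%) were called in the same direction, against 23.4% of all genes called in either direction. On day 2 it was 42.9%, against 25.9% of all genes, and on day 3 it was 29.2%, against 19.9%. It was 42.7% on day 4, 42.8% on day 5 and 42.2% on day 7, while 33.6%, 39.1% and 41.4% of all genes were called on those days. On day 8 it was 26.4%, against 24.4% of all genes, and on day 9 it was 29.4%, against 29% of all genes. On day 10 it was 965 genes (20.5%), against 22.3% of all genes. These shares of day 0 genes count calls in 1 direction, whereas the shares of all genes count calls in both. On day 10 the calls of all genes divided into 12.3% higher and 9.98% lower. Calls in the opposite direction numbered 12 (0.255%) on day 1 and 294 (6.24%) on day 10. The count on each day also depends on depth and spread, and 3 V. riparia samples of day 4 and 1 V. amurensis sample of day 9 were shallow.

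The sizes were also followed without a threshold. The median log2 fold change of the 2312 genes higher on day 0 was 1.27 on day 0, 0.858 on day 1, 0.560 on day 3, 0.584 on day 5, 0.459 on day 7, 0.336 on day 8, 0.269 on day 9 and 0.151 on day 10. For the 2396 lower genes it was -1.38, -1.09, -0.592, -0.997, -1.05, -0.600, -0.755 and -0.395 on the same days, so their course was uneven. The step from day 0 to day 1 includes the effect of choosing genes on the day 0 samples, while the later steps do not. Over all genes the median lay between -0.0342 and 0.116 on every day. Counted by gene, 400 of the 4708 (8.5%; 198 higher, 202 lower) were called in the same direction on all 9 later days, against 4.15% of all tested genes called higher on all of these days or lower on all of them. At the other end, 1167 (24.8%; 676 higher, 491 lower) were called in the same direction on no later day.

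The change was also tested directly, as the species difference on day 0 minus the mean difference of the 9 later days. It was called at 3831 of 21733 genes (17.6%), with the day 0 value above the later mean at 1915 genes and below it at 1916. Of these, 1970 were among the 6006 genes called on day 0 in this same fit of shared days, a set other than the 4708 above. In 929 of the 1970 the later mean had the same sign and a smaller size, in 966 it had the opposite sign, and in 75 it was larger. In 1160 of them the later mean was within 0.5 of 0 on the log2 scale. Both calls use the same day 0 samples, so a day 0 difference larger than the later mean is partly built into the choice of these genes. The split is therefore a description only.

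**Figure D3:**
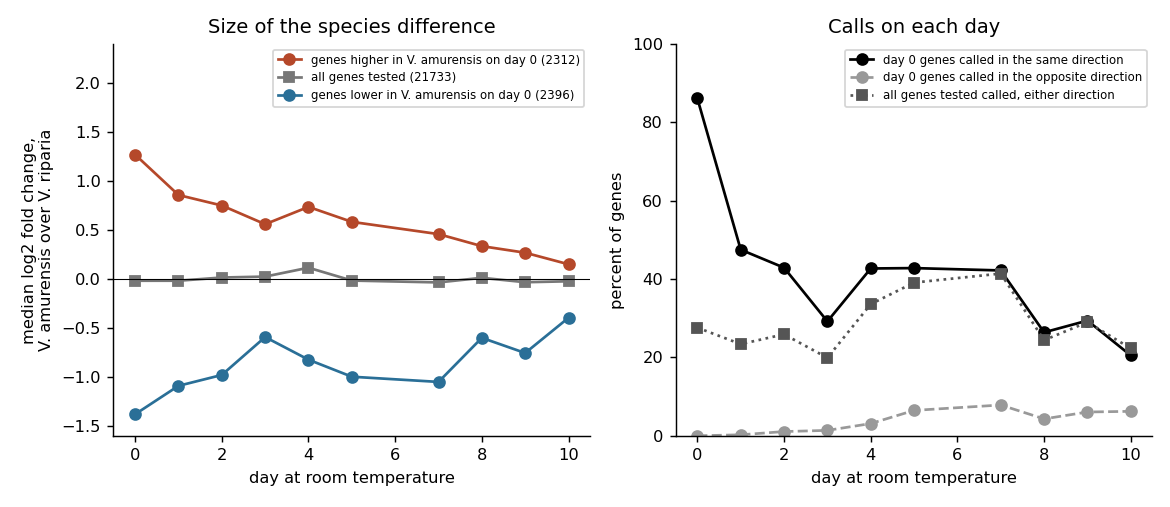
Left, median log2 fold change of V. amurensis over V. riparia on each shared day for genes higher (red, 2312) or lower (blue, 2396) in V. amurensis on day 0 and for all 21733 tested genes (grey). Right, percent of the 4708 day 0 genes called in the same or the opposite direction on each day, beside the percent of all genes called in either direction. On day 10 the day 0 genes had 20.5% in the same and 6.24% in the opposite direction, and all genes had 22.3% over both directions.

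Genes that respond to warmth in other grapevines differed between the dormant buds of the wild species, with most calls in 1 direction for 3 of 4 lists. Lists were made from the cultivars alone, as genes that changed in the same direction in Cabernet Sauvignon and in Riesling from day 0 to day 1 (early) or to day 9 (late). Among genes that fell late in the cultivars, those called between the wild species were mostly lower in dormant V. amurensis. Of 2574 tested late fallers, 144 (5.59%) were higher and 727 (28.2%) were lower in V. amurensis, against 14.7% and 15.2% of all tested genes, and the rest were not called. Their median log2 fold change was -0.339, against 0.00159 over all genes. The early fallers had 47 higher (6.68%) and 221 lower (31.4%) of 704, with a median of -0.432. These lists overlap, since 576 genes stand in both. They are 80.8% of all 713 listed early and 21.8% of all 2644 listed late fallers, tested or not.

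Genes that rose late in the cultivars had the opposite balance, and genes that rose early had none of that size. Of 2162 tested late risers, 557 (25.8%) were higher and 234 (10.8%) were lower in V. amurensis, with a median of 0.323. Of 642 tested early risers, 113 (17.6%) were higher and 133 (20.7%) were lower, with a median of -0.0544. The tested early risers thus held more calls than the average tested gene in both directions. Of all 843 listed early risers, tested or not, 529 (62.8%) also stand among the 2809 listed late risers, where they make up 18.8%. A second pair of lists, added after the data had been seen, came from warmed buds of the wild species themselves, as genes that changed in the same direction in both from day 1 to day 10. Its 2846 tested fallers had 201 (7.06%) higher and 761 (26.7%) lower in V. amurensis, and its 1989 tested risers 464 (23.3%) higher and 160 (8.04%) lower. Many risers had too few counts on day 0 to be tested. Of the listed genes, 642 of 843 early risers, 2162 of 2809 late risers and 1989 of 3632 wild risers were tested. For fallers it was 704 of 713 early, 2574 of 2644 late and 2846 of 2966 wild. A gene low in dormancy can be tested because of its level in 1 species alone. This can raise the shares of risers called, and its part was not tested.

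Late fallers with a larger change in the cultivars had a larger median difference between the wild species. Among late fallers whose cultivar change was under 1 on the log2 scale, 16.7% of 222 were lower in V. amurensis and the median was -0.0965. For changes of 1 to 2, 22.1% of 1373 were lower, with a median of -0.234. For 2 to 3 it was 37.6% of 516 with a median of -0.527, and at 3 or more it was 41.5% of 463 with a median of -0.753. The late risers showed less of an order, with 19.0%, 24.3%, 24.4% and 34.0% higher in V. amurensis over the same steps and medians of 0.244, 0.325, 0.269 and 0.475. The share of late risers lower in V. amurensis was larger at the larger steps too, at 8.57%, 8.87%, 12.9% and 13.9%.

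The lists were also read sample by sample, as the median over a list of each gene's deviation in log2 CPM from its day 0 mean in the wild species. For the late fallers this was -0.155, -0.224, -0.336 and -0.0261 in V. amurensis, against 0.0681, 0.225, 0.238 and 0.300 in V. riparia. The groups did not overlap, although replicate 5 of V. amurensis and replicates 1 and 4 of V. riparia lay close to each other. For the late risers it was 0.151, 0.354, -0.0506 and 0.185 in V. amurensis, against -0.0343, -0.115, -0.231 and -0.0544 in V. riparia. Here replicate 3 of V. amurensis, the sample that stood apart and the shallowest one, lay among the V. riparia samples. For the early fallers the values ran from -0.347 to -0.0448 in V. amurensis and from 0.129 to 0.267 in V. riparia. For the early risers the ranges overlapped, -0.234 to 0.107 in V. amurensis and -0.0624 to 0.276 in V. riparia.

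In 20 alternative analyses of the cultivar lists, which included leaving out each sample and both samples that stood apart, late fallers always had more lower than higher genes in V. amurensis, by 4.26 to 6.45 times. Without both samples that stood apart they were 174 higher and 924 lower, and the late risers 748 higher and 277 lower. In every alternative the late risers had more higher than lower genes, by 2.09 to 2.7 times. The share of counts in the 100 most abundant genes differed between the species as given above. The balance of calls over all tested genes also varied with level, with 460 higher and 986 lower in the highest set of 5256 genes. The comparison of the lists with all tested genes did not account for level. The part of either in the list values was not tested. On day 0 the cultivar samples had means of 0.328 in Cabernet Sauvignon and 0.221 in Riesling for the late fallers, and -0.381 and -0.306 for the late risers. Those cultivar samples helped to choose the lists, so their values are a description only.

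**Figure D4:**
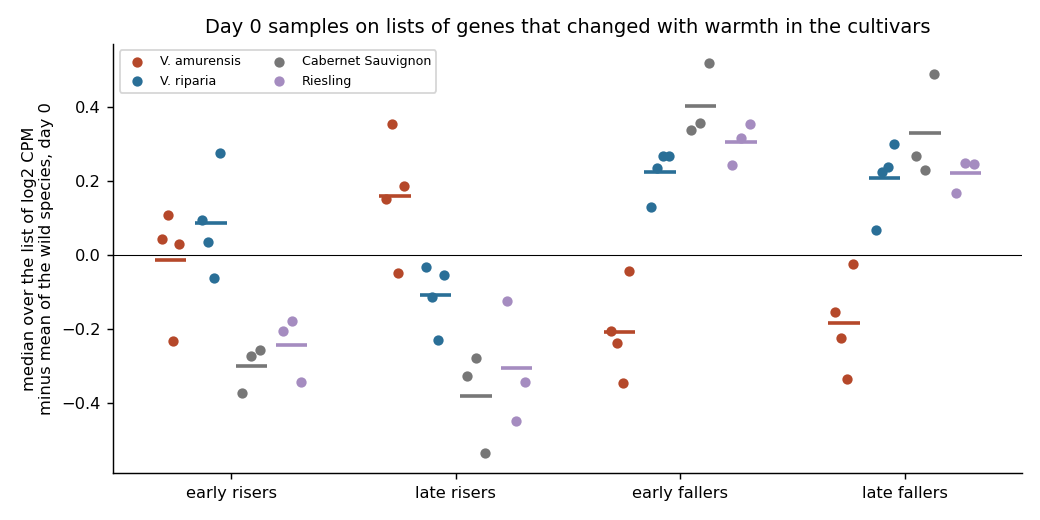
Median deviation in log2 CPM from the day 0 mean of the wild species over each list of warmth-responsive genes (vertical axis), with a point for each day 0 sample and a bar at the mean of each genotype. V. amurensis (red) lies below V. riparia (blue) on both lists of fallers without overlap, and above it on the late risers except for 1 sample.

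The list difference was not limited to day 0. In the fit of shared days, late fallers lower in V. amurensis made up 22.7% of 2628 on day 0, 27.7% on day 2, 11.6% on day 3 and 37.9% on day 7, against 13.9%, 11.3%, 7.34% and 20.8% of all tested genes. They made up 10.3% on day 8, 22% on day 9 and 10.5% on day 10, against 12.3%, 15.3% and 9.98% of all tested genes. Late fallers higher in V. amurensis made up 6.51%, 5.9% and 6.93% on days 8, 9 and 10, against 12.1%, 13.8% and 12.3% of all tested genes. The median of the late fallers was -0.095, -0.402 and -0.13 on these days. Late risers higher in V. amurensis made up 24.9% of 2792 on day 0, 33.2% on day 2 and 39.4% on day 4, against 13.8%, 14.6% and 20.3% of all tested genes. They made up 11.8% on day 8, 14.9% on day 9 and 11.6% on day 10, against 12.1%, 13.8% and 12.3% of all tested genes. The median of the late risers was 0.286 on day 0, 0.616 on day 2, 0.660 on day 4, 0.0369 on day 8, 0.102 on day 9 and -0.0324 on day 10. The median of the late risers was thus larger on days 2 and 4 than in dormancy, and on days 8 to 10 it was near 0, with more lower than higher calls (330 higher and 426 lower on day 8).

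By sample, the late risers stood at 0.160 ± 0.166 in V. amurensis and -0.109 ± 0.0885 in V. riparia on day 0 (SD, n = 4 each). On day 2 they stood at 1.43 ± 0.0346 in V. amurensis and 0.916 ± 0.0712 in V. riparia, and on day 10 at 1.52 ± 0.176 in V. amurensis and 1.66 ± 0.168 in V. riparia (SD, n = 3 each). The late fallers stood at -1.36 ± 0.0252 in V. amurensis and -0.775 ± 0.163 in V. riparia on day 2, and at -1.85 ± 0.0954 in V. amurensis and -1.70 ± 0.125 in V. riparia on day 10. The early risers stood far higher after 1 day in both species, at 1.25 ± 0.0557 in V. amurensis and 1.22 ± 0.173 in V. riparia on day 1. All day 0 samples of both species lay well below that, between -0.234 and 0.276.

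**Figure D5:**
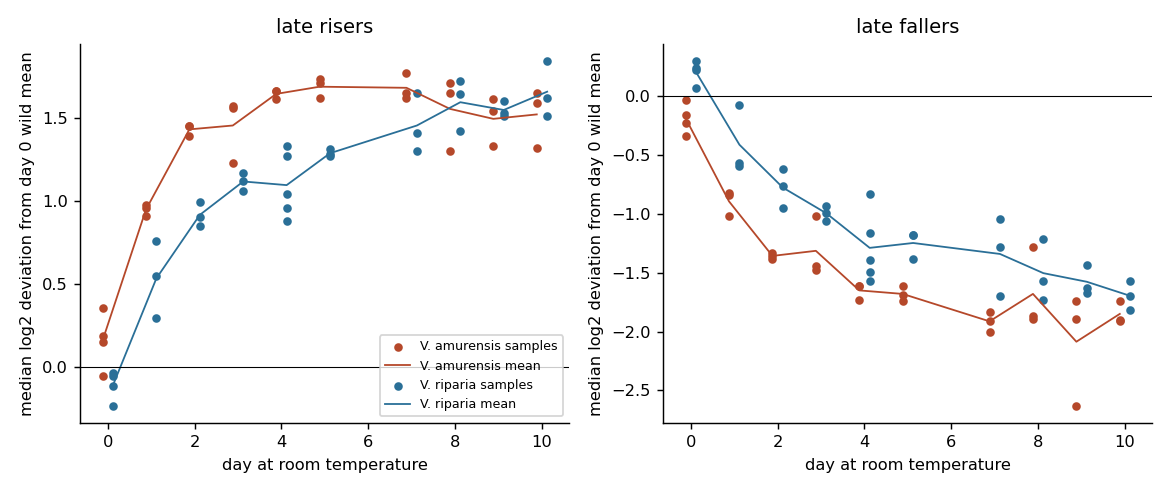
Median deviation in log2 CPM from the day 0 mean of the wild species over the late risers (left) and late fallers (right) in every sample against day at room temperature, with lines through the species means. The means of V. amurensis (red) lay above those of V. riparia (blue) on the risers from day 0 through day 7. On the fallers the means of V. amurensis lay below those of V. riparia on every shared day. The species means were close on day 10 (1.52 and 1.66 for risers, -1.85 and -1.70 for fallers).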

How the data were processed

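The authors deposited 189 tables of whole-number counts per gene, each with 42394 gene rows and 5 bookkeeping rows, which were left out of library sizes. Per the submitters' processing notes, cutadapt, STAR, HTSeq and DESeq2 were used, with no roles or versions; the genome build and annotation are not given in the sources used here. Whether counting used strand, or how reads of near-identical genes were treated, is likewise not given. Gene identifiers matched 0 entries of the RefSeq gene table (assembly ASM3070453v1), so names, positions and sequences are not used here.

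Members and lists were chosen with earlier results of these data known. Libraries of 1 group with a pairwise coefficient of variation under 0.09 were summed. Tests were edgeR 4.0.16 quasi-likelihood fits (R 4.3.3, TMM, edgeR's expression filter, Benjamini-Hochberg over all tested genes), with standard errors derived from F. The fits were also run on simulated counts, whose means and common dispersion came from the fits to these data. That setting is simpler than the data. CPM are TMM-scaled, and log2 CPM used a prior count of 2. List scores and permutation tests used Python 3.11.15 and NumPy 2.4.6, and DESeq2 1.42.0 was an alternative. Genes described singly were called, had at least 1 CPM in each species and a mean log2 CPM of at least 3, did not overlap between species, and had the largest gap. For the lasting kind they were called in 1 direction on all 10 shared days. For the day 0 kind the interaction was called and the later mean lay within 0.5 of 0 on the log2 scale.

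The species check was first set as at least 8-fold between every library of the species, which left 5 V. amurensis and 0 V. riparia genes. It was then widened, after the data were seen, to the 10th percentile of 1 species over the 90th of the other, with 37 and 35 genes. A level of 3 counts is 0.214 to 1.86 CPM in V. amurensis and 0.185 to 0.705 CPM in V. riparia day 0 samples. Floors cover counting error only, since PCR reads without molecular identifiers are not independent molecules.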

Additional observations from a re-analysis of the deposited data

Results flagged for a closer look

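In 34 groups of 4 to 10 samples, 4 values lay far from the rest of their group by Dixon's criterion, where chance gives about 1 in 20 groups. Replicate 3 of V. amurensis on day 0 had 16775 genes detected after thinning, against 19352 to 19675 in the other V. amurensis samples. Replicate 5 of V. amurensis had 16.5% of its counts in the 100 most abundant genes. Replicate 2 of V. riparia on day 0 had 9.86% of its records outside annotated genes, against 17.3% to 17.9% in the other V. riparia samples. Replicate 3 of V. riparia on day 4 had 185 CPM of Vitvi16g01035, against 86.2 to 107 CPM in the other samples.

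The species difference on day 0 was unlike its mean over the later days at 3831 genes by the interaction test. Among the genes described singly, day 0 minus the later mean was 1.14 on the log2 scale for Vitvi18g03382 (edgeR adjusted p 0.0330), 3.38 for Vitvi01g00775 and -4.19 for Vitvi16g01035. The last 2 genes were chosen by this difference, so their values are a description only. Vitvi18g03382 was chosen for its wide gap on day 0, which enters this difference, so its p-value is no separate evidence. In the fit of shared days its log2 fold change was larger on day 2 (5.99) than on day 0 (5.01).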

How the results depend on the processing

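The 4 genes described singly kept their sign and their call in all 17 or 18 alternatives. This follows largely from choosing them for the widest gap in these same samples, and it adds no separate evidence. The count of called genes was 2521 to 6415 over 19 alternatives (DESeq2 5541), with 45.6% to 50.2% of calls higher in V. amurensis. With replicates 1 to 3 only it was 2521 (1176 higher, 1345 lower). There the lists, as higher and lower, were early risers 70 and 70, early fallers 18 and 126, late risers 327 and 128, and late fallers 76 and 426. In the same setting 2173 interactions, 471 genes called on every day, 4187 calls between the wild species beside the cultivars, 23 genes nearly silent in V. riparia and 13 nearly silent in V. amurensis were found. Limited to genes of at least 10 CPM in the cultivars, added after the data were seen, 3115 genes were called, 1436 of them higher, with early risers 46 and 63 and late risers 264 and 105. At 2-fold or more, early fallers were 22 and 132 and late fallers 78 and 445, and the calls beside the cultivars were 4209, 4161 and 4193. At 5 CPM the nearly silent genes were 20 in V. riparia and 25 in V. amurensis.

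Leaving out each sample gave 3708 to 5273 calls, 28 to 44 early fallers higher (28 or 29 without V. amurensis 1 or 5 or V. riparia 2 or 5) and 94 to 144 late fallers higher (94 without V. riparia 2). The median of the early risers was -0.122 to 0.0495 and so changed sign. Differences in library measures were -0.841 to 2.17 percentage points for records outside genes, -1.42 to 2.63 for records not unique and -612 to 327 genes detected. With all libraries separate they were -0.206, -0.851 and 129, and the share of the top 100 genes was -4.71 (exact permutation, adjusted p 0.0433). That p-value counts near copies as separate samples and so overstates the evidence. With near copies summed it was 0.143 (exact permutation, adjusted p). With replicates 1 to 3 the records not unique were -2.37. Without both samples that stood apart, added after the data were seen, genes detected were 230 and the cultivars differed at 1416 genes. The causes of these shifts were not tested.

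Replicate numbers did not pair the samples, with correlations of same-numbered deviations of 0.183, 0.158, 0.245 and -0.00403, and not every sample correlated best with its own number. With the replicate number as a block, 5263 genes were called (2524 higher, 2739 lower) and 3773 interactions, and the late fallers were 174 higher and 827 lower.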
